A study of Mus musculus with 24 samples.

Results

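Adipogenic transcription factors were examined in retroperitoneal white fat of adult mouse offspring. The 8 factors were Pparg, Cebpa, Cebpb, Cebpd, Klf15, Ebf1, Ebf2 and Zfp423. They were chosen by gene symbol, with earlier results of these data known, out of 56895 entries of the RNA sequencing tables. All mice were labelled C57BL/6J (C57BL/6JRJ in the study's methods). The mothers' purified diet contained vitamin D3 at 1.0 IU per g in the CTRL arm and at 0.0 IU per g in the VDD arm. It was started 8 weeks before mating, and after birth all mothers received the control diet. The offspring were given a low-fat (LF) diet or a high-fat (HF) diet with 45% of energy from fat from 6 weeks of age and for 8 weeks, and were fasted overnight before dissection. These choices gave 8 groups (CTRL LF, CTRL HF, VDD LF and VDD HF in each sex) with 3 mice in each, 24 libraries in all. Litters had been cut to 6 pups. The litter of each mouse was not given in the sources used here, so p-values measured the spread between mice, some of which could be siblings.

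Adipocytes form from progenitors through a cascade of transcription factors. C/EBPB (Cebpb) and C/EBPD (Cebpd) are induced first by hormonal signals and turn on the nuclear receptor PPARG (Pparg) and C/EBPA (Cebpa), which then maintain each other and the genes of lipid storage in the mature cell. KLF15 (Klf15) is a zinc-finger factor induced by glucocorticoids and by fasting, and it acts on lipid, glucose and amino acid metabolism in fat, muscle, liver and kidney. EBF1 (Ebf1), EBF2 (Ebf2) and ZFP423 (Zfp423) act earlier, in committed progenitors, and EBF2 marks the precursors of brown and beige adipocytes.

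The libraries held 13346779 to 18484346 reads in genes, and every factor was read in every library, from 157 to 2235 reads for Cebpd up to 6408 to 12118 for Cebpa. Counting error was therefore small beside the differences between mice. All levels are normalised read counts on one scale over the 24 libraries, and differences are log2 of the level with 1 read added. The fat cell genes Adipoq (44740 reads or more) and Plin1 (9362 reads or more) were abundant in all 24 libraries. Other tissues were seen in some of them. The summed level of 15 skeletal muscle genes had a median of 2171 reads, but reached 1455100 in VDD LF male 2310, 474990 in VDD HF male 2307, 324272 in VDD HF male 2298 and 215234 in VDD LF female 2303 (mice are given by their numbers). The last also held the kidney genes Umod (1937 reads, 5 or fewer in each other library) and Slc34a1 (2907 reads, 3 or fewer in each other library). The muscle sum was also 96363 in CTRL LF male 2287 and 77721 in CTRL LF female 2335. It was 68306 in VDD LF male 2302, 59236 in VDD HF female 2083 and 27612 or less in each other library. Fits without the 4 libraries highest in muscle genes still held these. The sum of 10 adrenal genes, with a median of 712 reads, reached 33106 in CTRL HF female 2292, 19172 in VDD HF female 2121 and 10402 in CTRL HF female 2290. The word renal stood in the names of 6 libraries, and no source used here says what it marks. A lower level in whole tissue can mean fewer cells of a type or less RNA in each, and these cannot be told apart here.

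On the GRCm38 assembly Pparg was at chr6:115360951-115490399 and Klf15 at chr6:90462576-90475238, both on the plus strand of chromosome 6. Cebpa was at chr7:35119293-35121928, Cebpb at chr2:167688915-167690418, Cebpd at chr16:15887286-15891031, Ebf1 at chr11:44617317-45008091 and Ebf2 at chr14:67233292-67430918, all on the plus strand, and Zfp423 at chr8:87661810-87959595 on the minus strand. Each of the C/EBP genes shared some exon sequence with a gene on the other strand. The overlap was 312 bases for Cebpb with Tmem189 (424 to 986 reads), 562 bases for Cebpd with Spidr (98 to 280 reads) and 51 bases for Cebpa with Gm45091 (19 to 92 reads). The library kit marked strand, but whether the counting used it was not given in the sources used here.

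Per kb of exon the factors spanned a wide range, and the late factors of the cascade were the most abundant. The median level over the 24 libraries was 3506 reads per kb for Cebpa and 1227 for Pparg. It was 475 for Cebpb, 399 for Klf15, 154 for Ebf1, 146 for Cebpd, 77.7 for Ebf2 and 70 for Zfp423, still per kb. The factors also differed in how much they moved. The highest library held 14.2 times the lowest for Cebpd, 5.74 times for Cebpb and 4.99 times for Klf15, against 2.32 times for Cebpa and 2.21 times for Ebf1. Mice of the same group differed most for Cebpd (SD within groups of 0.71 on the log2 scale) and least for Pparg and Ebf1 (0.21 each).

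**Figure D1:**
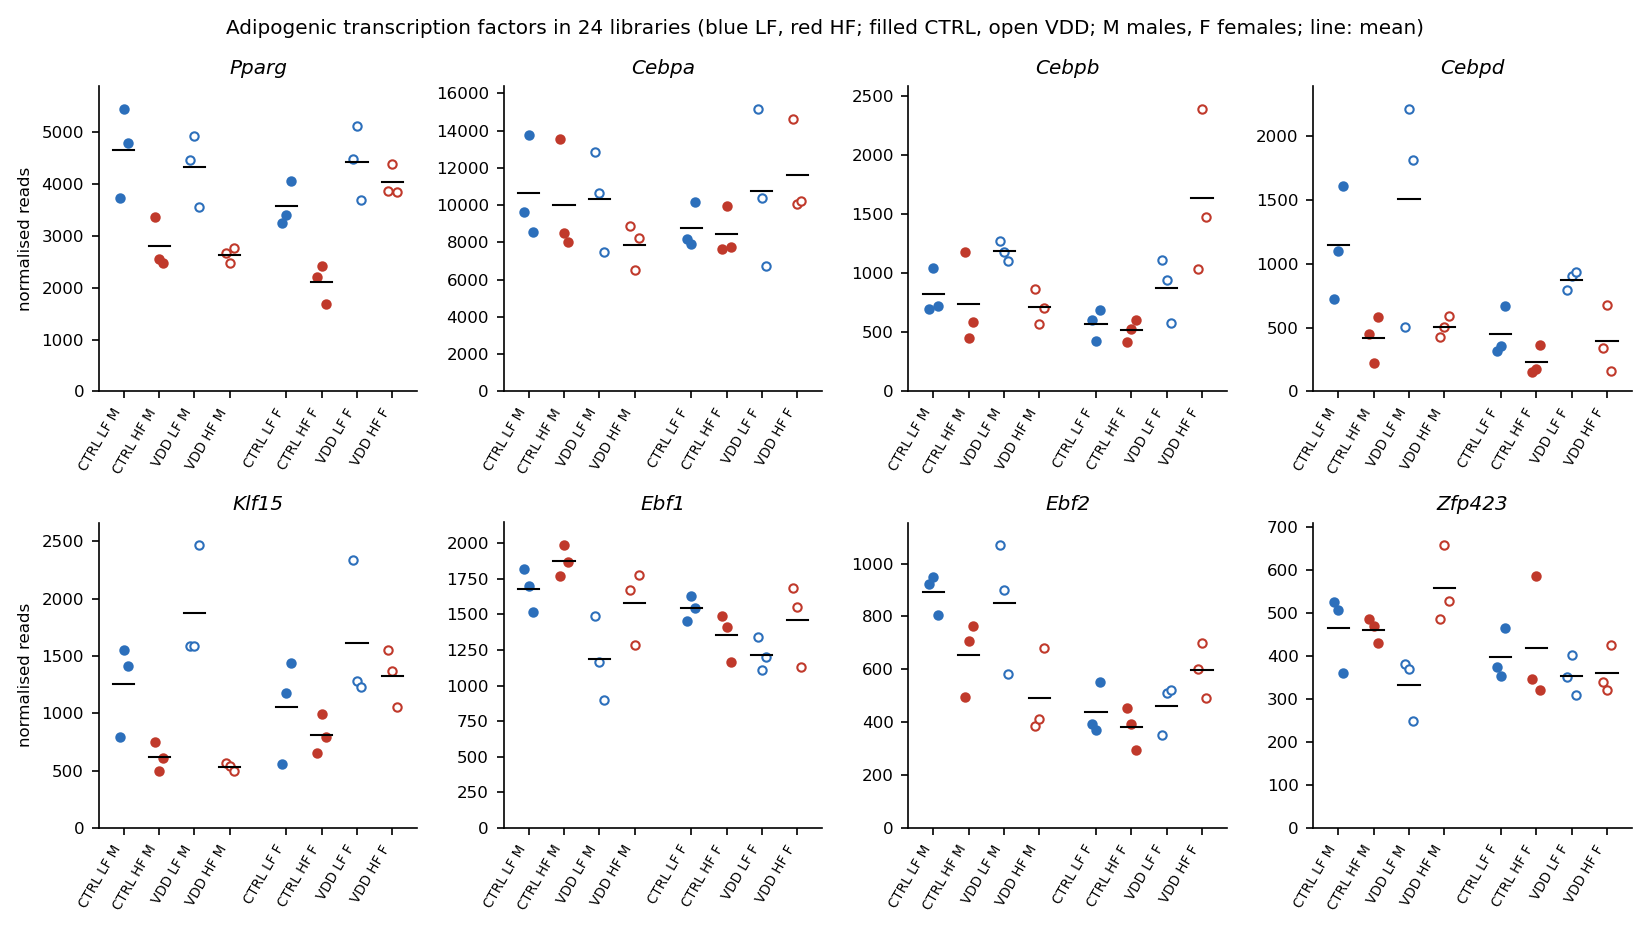
Normalised read counts of the 8 factors (y axis, linear from 0) in each library, 3 mice per group in 8 groups (x axis), with blue for LF, red for HF, filled dots for CTRL, open dots for VDD and a line at each group mean. In males all HF dots of Pparg (2483.2 to 3359) and Klf15 (495 to 746) lie below all LF dots (3559 to 5456 and 789 to 2465).

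Across both maternal groups, HF males had lower Klf15 and Pparg than LF males, and these were the only factors of the 8 to pass the test in any comparison over the 24 libraries. A gene was called when its adjusted p was under 0.01 and its fold above 1.5 or below 0.66, in limma fitted to all 18399 genes tested with Benjamini-Hochberg adjustment. In HF vs. LF males 2 of 8 factors were called, against 8.46% of all genes tested (3.42% lower and 5.04% higher). At an adjusted p under 0.05 with no fold limit, 4 of 8 passed (Klf15, Pparg, Cebpd and Ebf2, all lower in HF), against 23% of all genes, and 7 of 8 had an unadjusted p under 0.05, against 36%. The median difference of the 8 was -0.56, beside 0.0013 for all genes, with 6 factors lower and 2 higher.

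In the other contrasts over the 24 libraries limma called 0 of 8 factors, and limma-voom also called 0. In HF vs. LF females 0 of 8 were called, 0 passed at an adjusted p under 0.05 and 2 had an unadjusted p under 0.05, against 0.272%, 3.19% and 20.4% of all genes. In VDD vs. CTRL females 0 were called, 2 passed at an adjusted p under 0.05 (Pparg and Cebpb, both higher in VDD) and 4 had an unadjusted p under 0.05, against 0%, 2.02% and 21.3% of all genes. In VDD vs. CTRL males 0 were called and 1 had an unadjusted p under 0.05, against 0% and 10.8%. In females vs. males 0 were called, 2 passed at an adjusted p under 0.05 (Ebf2 and Cebpd, both lower in females) and 3 had an unadjusted p under 0.05, against 7.27%, 19.8% and 33%. For the interaction of sex with offspring diet 0 were called, 0 passed at an adjusted p under 0.05 and 3 had an unadjusted p under 0.05, against 0.0272%, 0.0435% and 8.92%. For the interaction of maternal with offspring diet 0 were called in either sex (0% of all genes in both), with 1 factor at an unadjusted p under 0.05 in males and 2 in females, against 4.1% and 6.36%.

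The 8 comparisons of 2 groups that the study made, each with 3 mice against 3, called 0 of 8 factors by limma and by limma-voom. With so few mice a count of 0 does not show that the factors were alike. The same rule called 0.0578% of all genes for HF vs. LF in CTRL males, 0.0752% in VDD males and 0% in the other 6. At an adjusted p under 0.05, Klf15 passed in VDD LF vs. VDD HF males (5.35% of all genes did) and Pparg in CTRL LF vs. CTRL HF females (7.4%), while 0 of 8 passed in CTRL males (1.17%). At an unadjusted p under 0.05 the count was 4 of 8 for HF vs. LF in CTRL males (18.8%), 6 in VDD males (25.9%), 2 in CTRL LF vs. CTRL HF females (28.8%) and 2 in VDD LF vs. VDD HF females (5.05%). It was 2 in CTRL LF vs. VDD LF males (6.79%), 0 in CTRL HF vs. VDD HF males (5.31%), 2 between the LF females (12%) and 4 between the HF females (16.7%). These comparisons share libraries with each other, so their counts are not independent.

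Groups of 3 can stand apart without passing a test, and several factors did, here on the separate scale of each comparison's table. With HF in CTRL males 4 of 8 factors were lower without overlap (Pparg, Cebpd, Klf15 and Ebf2), against 11.7% of all genes. With HF in VDD males 3 were lower (Pparg, Cebpb and Klf15) and 1 higher (Zfp423), against 16.5% and 17%. With HF in CTRL females 2 were lower (Pparg and Ebf1), against 18.2%, and in VDD females 1 (Cebpd), against 6.06%. Between maternal groups, VDD LF males had 2 higher (Cebpb and Klf15) and 1 lower (Ebf1), against 6.83% and 6.59%, and VDD HF males 1 lower (Ebf1), against 5.25%. On the scale over the 24 libraries, on which the levels of the single mice are given, Ebf1 overlapped in CTRL females and between HF males, and Zfp423 did not overlap between HF males. VDD LF females had 1 higher (Cebpd) and 1 lower (Ebf1), against 8.48% and 9.74%. VDD HF females had 5 of 8 higher (Pparg, Cebpa, Cebpb, Klf15 and Ebf2) and 0 lower, against 11.1% of all genes higher.

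**Figure D2:**
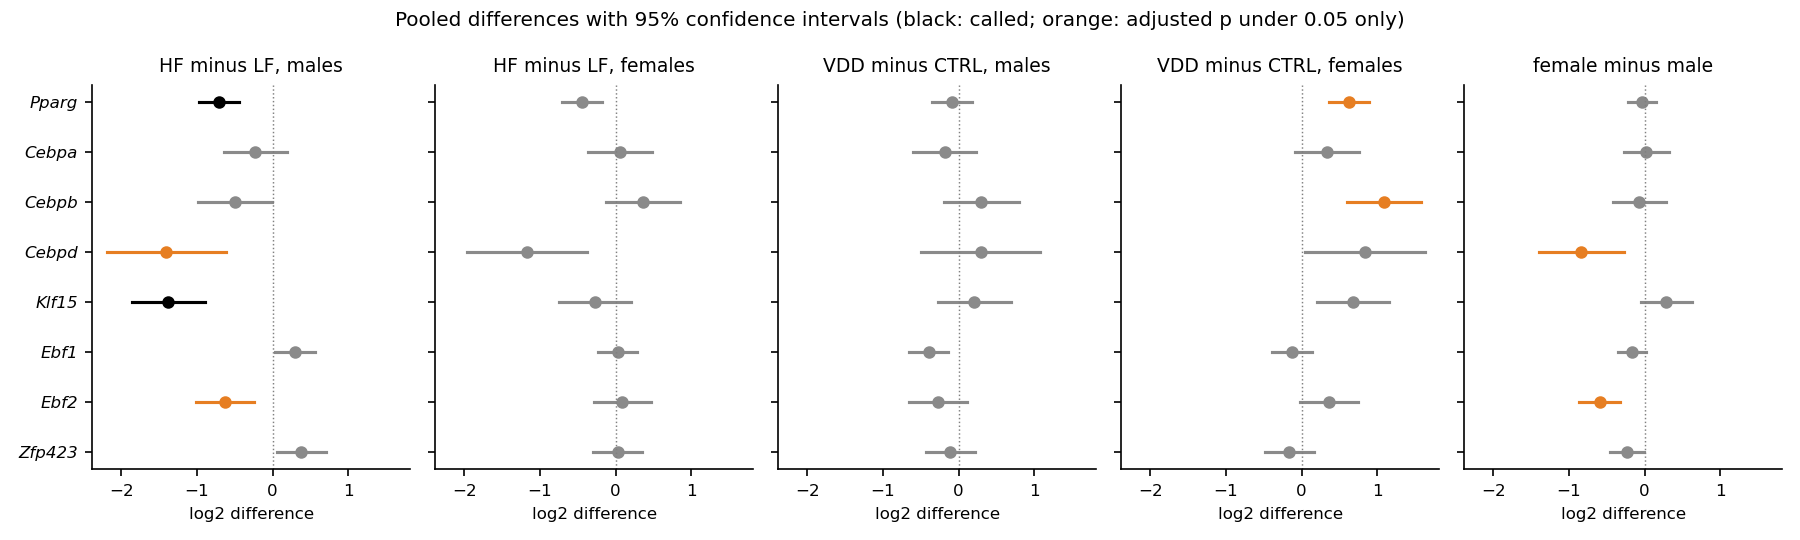
Log2 differences of the 8 factors in 5 contrasts over the 24 libraries, with bars for the 95% confidence interval from limma. Black marks a called factor, orange an adjusted p under 0.05 only and grey neither, so black stands only at Klf15 (-1.38) and Pparg (-0.71) for HF vs. LF males.

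Pparg encodes the nuclear receptor without which fat cells do not form, and it drives the storage of triglyceride. In males Pparg had 3735, 5456 and 4790 normalised reads in CTRL LF, 3359, 2563 and 2484 in CTRL HF, 4474, 4934 and 3559 in VDD LF and 2669, 2483.2 and 2766 in VDD HF. Every HF male was below every LF male, whichever the maternal group. Pparg fell by 0.71 ± 0.13 (SE) on the log2 scale in HF males (0.609 times the LF level, 95% interval -0.98 to -0.45, adjusted p = 0.000688 by limma, n = 6 vs. 6), and 3.95% of all genes were likewise lower in HF males without overlap. Within CTRL males the difference was -0.74 ± 0.21 (adjusted p = 0.119 by limma), and within VDD males it was -0.70 ± 0.16 (adjusted p = 0.0615 by limma). The call was lost without the 6 renal-named libraries, where the difference was -0.68 (adjusted p = 0.017 by limma).

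In females Pparg had 3251, 3412 and 4053 normalised reads in CTRL LF, 2213, 2425 and 1681 in CTRL HF, 4484, 5121 and 3687 in VDD LF and 3866, 4384 and 3854 in VDD HF. The 3 CTRL HF females stood apart from the 9 others, which overlapped each other. Pparg was lower in CTRL HF than in CTRL LF females (4005 ± 455 vs. 2327 ± 439 on the scale of that table, SD, n = 3), a log2 difference of -0.79 ± 0.17 with an adjusted p of 0.0378 by limma that missed the limit of 0.01. Among VDD females the HF vs. LF difference was -0.12 ± 0.18 (adjusted p = 0.917 by limma). The difference between these differences, the interaction of maternal and offspring diet in females, was 0.65 ± 0.25 (unadjusted p = 0.0187 and adjusted p = 0.746 by limma). VDD vs. CTRL females over both diets differed by 0.63 ± 0.13 (1.54 times, adjusted p = 0.0267 by limma), with 3687 to 5121 reads (median 4125) in VDD and 1681 to 4053 (median 2838) in CTRL. That value missed the limit of 0.01, and its adjusted p was 0.122 without the 3 libraries highest in adrenal genes, 2 of which were CTRL HF females, with a difference of 0.53. Between the HF females of both maternal groups alone there was no overlap (0.96 ± 0.18, adjusted p = 0.131 by limma). The order of group means ran from CTRL LF males (4661) to CTRL HF females (2106). Neighbours in it differed by more than the larger SD between VDD HF females (4035) and CTRL LF females (3572), between CTRL LF females and CTRL HF males (2802), and between VDD HF males (2640) and CTRL HF females. Of these pairs only the last had ranges that did not overlap.

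The annotation from RefSeq on GRCm38.p6 gave 3 start sites for Pparg. A pair of their promoter windows is shown because Pparg was called and because they differ in their core sequence. Each runs from 250 bases before to 50 after a start, and capitals mark CCAAT and TATAAA on either strand. The window at chr6:115362099-115362398, plus strand, had 1 CCAAT 83 bases and 1 TATAAA 29 bases before the start. The window at chr6:115421816-115422115, plus strand, had CCAAT 144 and 22 bases before the start and no TATAAA. Both windows lie inside the gene. Of 32851 mouse promoter windows of this length, 37.4% held CCAAT and 13.6% TATAAA.
Pparg window at 115362099: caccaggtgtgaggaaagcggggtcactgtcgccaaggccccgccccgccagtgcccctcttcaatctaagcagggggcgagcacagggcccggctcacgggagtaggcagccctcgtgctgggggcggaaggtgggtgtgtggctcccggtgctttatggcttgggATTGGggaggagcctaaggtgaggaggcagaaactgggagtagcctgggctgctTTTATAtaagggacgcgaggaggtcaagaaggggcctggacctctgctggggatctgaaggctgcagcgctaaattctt
Pparg window at 115421816: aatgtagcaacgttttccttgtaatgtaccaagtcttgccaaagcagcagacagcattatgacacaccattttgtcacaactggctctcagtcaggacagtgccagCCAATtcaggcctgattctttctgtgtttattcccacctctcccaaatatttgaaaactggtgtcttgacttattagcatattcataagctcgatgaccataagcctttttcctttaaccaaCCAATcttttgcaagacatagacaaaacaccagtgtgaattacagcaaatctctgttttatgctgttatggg

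Cebpa encodes the partner of PPARG in mature fat cells, and it passed no test. Over the 24 libraries it ranged from 6539 (VDD HF male 2307) to 15182 reads (VDD LF female 2303), with a median of 9240. The difference was -0.23 ± 0.20 for HF vs. LF males (95% interval -0.65 to 0.19, adjusted p = 0.442 by limma), 0.06 ± 0.20 for HF vs. LF females (adjusted p = 0.906) and 0.34 ± 0.20 for VDD vs. CTRL females (adjusted p = 0.34). The 8 group means, from 11634 in VDD HF females to 7885 in VDD HF males, followed each other in steps smaller than the larger SD of the neighbours. The HF females of both maternal groups did not overlap (7651, 9963 and 7772 vs. 14610, 10079 and 10213 reads), at 0.46 ± 0.23 (adjusted p = 0.373 by limma).

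Cebpb encodes an early factor of the cascade that also responds to cAMP and inflammation. In females Cebpb had 602, 423 and 691 normalised reads in CTRL LF, 417, 528 and 603 in CTRL HF, 1109, 941 and 578 in VDD LF and 1036, 2390 and 1476 in VDD HF. All VDD HF females were above all CTRL females, and 1 VDD LF female was not. VDD vs. CTRL females differed by 1.09 ± 0.23 (2.13 times, 95% interval 0.60 to 1.58, adjusted p = 0.031 by limma), which missed the limit of 0.01. Between HF females alone it was 1.61 ± 0.31 (adjusted p = 0.133 by limma). Without each of 3 sets of libraries in turn (the 6 renal-named, the 4 highest in muscle genes and the 3 highest in adrenal genes) the difference stayed between 0.99 and 1.26, with adjusted p from 0.0753 to 0.117. The overlapping gene Tmem189 differed by 0.22 (adjusted p = 0.354 by limma).

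The summed genes of brown and beige fat were highest in 2 libraries of the same group of females. The summed level of 17 of these genes with at least 1 read was 20240, 36057 and 53710 in the VDD HF females, and 9817 to 22746 in the 21 other libraries. Ucp1, which uncouples respiration, had 900, 4578 and 25479 reads in the VDD HF females, 2910, 5278 and 135 in the CTRL LF females and 1416 or fewer in each other library. Thus 1 of the 3 VDD HF females was above all other libraries in Ucp1. The mouse highest in Cebpb (2083) was not the one highest in Ucp1 (2121), and without 2083 the Cebpb difference for VDD vs. CTRL females was 0.93 (adjusted p = 0.1), without 2121 it was 1.11 (adjusted p = 0.0233). The part of brown and beige fat in the Cebpb and Pparg values of these mice was not tested.

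In males Cebpb had 693, 1043 and 724 normalised reads in CTRL LF, 1179, 448 and 585 in CTRL HF, 1275, 1175 and 1101 in VDD LF and 862, 568 and 704 in VDD HF. The VDD LF males lay above the VDD HF males and above the CTRL LF males without overlap. The first difference was -0.75 ± 0.18 for VDD LF vs. VDD HF males (adjusted p = 0.0655 by limma) and the second 0.56 ± 0.19 for CTRL LF vs. VDD LF males (adjusted p = 0.683). Over both maternal groups HF vs. LF males differed by -0.50 ± 0.23 and HF vs. LF females by 0.37 ± 0.23 (adjusted p = 0.13 and 0.401 by limma). The interaction of sex with offspring diet for Cebpb was 0.87 ± 0.33 (unadjusted p = 0.017 and adjusted p = 0.446 by limma).

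Cebpd encodes the other early factor and is induced by glucocorticoids. In males Cebpd had 727, 1100 and 1607 normalised reads in CTRL LF, 450, 225 and 583 in CTRL HF, 504, 2214 and 1814 in VDD LF and 424, 507 and 593 in VDD HF. In females it had 315, 354 and 670 in CTRL LF, 156, 176 and 366 in CTRL HF, 792, 902 and 932 in VDD LF and 339, 678 and 162 in VDD HF. The LF groups were above the HF groups in mean in all 4 pairs, with 1 low VDD LF male inside the range of the HF males. All the CTRL LF females lay inside the range of the HF females. The difference was -1.40 ± 0.38 for HF vs. LF males (0.378 times, adjusted p = 0.0117 by limma) and -1.17 ± 0.38 for HF vs. LF females (0.444 times, adjusted p = 0.0863), so neither was called. The interaction of sex with diet was 0.23 ± 0.53 (adjusted p = 0.938 by limma, 95% interval -0.88 to 1.35), an interval that leaves room for a large difference. Without the 4 libraries highest in muscle genes the difference in males was -1.16 (adjusted p = 0.122), and without VDD LF male 2078, the low LF male, it was -1.74 (adjusted p = 0.00234).

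Cebpd was also lower in females than in males over the 4 diet groups. The difference was -0.83 ± 0.27 (156 to 932 reads, median 360, vs. 225 to 2214, median 588; adjusted p = 0.0335 by limma), which missed the limit of 0.01. Leaving out 1 library at a time kept the adjusted p under 0.05 in 13 of 24 cases. In CTRL LF vs. VDD LF females Cebpd did not overlap (1.05 ± 0.27), but its adjusted p was 0.391 by limma. Spidr, the gene that overlaps Cebpd, differed by -0.09 in HF vs. LF males (adjusted p = 0.63 by limma).

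Klf15 encodes a factor that glucocorticoids induce and that links fasting to nutrient use. In males Klf15 had 789, 1553 and 1414 normalised reads in CTRL LF, 746, 495 and 614 in CTRL HF, 1582, 1586 and 2465 in VDD LF and 565, 541 and 495 in VDD HF. All 6 HF males were below all 6 LF males, and the VDD HF males lay close together. Klf15 fell by 1.38 ± 0.23 on the log2 scale in HF males (0.384 times, 95% interval -1.86 to -0.90, adjusted p = 0.000453 by limma, n = 6 vs. 6). Klf15 was called in each of 24 fits that left out 1 library, with differences from -1.53 to -1.27. In CTRL males the difference was -0.99 ± 0.27 (adjusted p = 0.108 by limma). In VDD males it was -1.78 ± 0.20 (1865 ± 488 vs. 531 ± 36.3 on the scale of that table, SD, n = 3, adjusted p = 0.0151), with adjusted p from 0.00543 (without VDD LF male 2310) to 0.0946 (without VDD HF male 2298) when 1 library was left out. The interaction of maternal with offspring diet in males was -0.81 ± 0.46 (unadjusted p = 0.0948 and adjusted p = 1 by limma).

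In females Klf15 had 561, 1175 and 1440 normalised reads in CTRL LF, 652, 991 and 789 in CTRL HF, 2332, 1282 and 1229 in VDD LF and 1549, 1366 and 1055 in VDD HF. The LF and HF females overlapped widely. HF vs. LF females differed by -0.27 ± 0.23 (95% interval -0.75 to 0.21, adjusted p = 0.543 by limma). The interaction of sex with offspring diet was 1.11 ± 0.32 (unadjusted p = 0.00276 and adjusted p = 0.292 by limma), so a difference between the sexes in the diet response of Klf15 was not shown. VDD vs. CTRL females differed by 0.68 ± 0.23 (adjusted p = 0.105 by limma) and by 0.53 (adjusted p = 0.242) without VDD LF female 2303.

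The highest Klf15 level of each sex was in the library highest in muscle genes of that sex, 2465 in VDD LF male 2310 and 2332 in VDD LF female 2303, the second of which also held kidney genes. Muscle and kidney express Klf15, and their part in these 2 values was not tested. Without the 4 libraries highest in muscle genes Klf15 was still called in HF vs. LF males.

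The Klf15 promoter, at chr6:90462326-90462625 on the plus strand of GRCm38.p6, is shown for its repeated E-box. Capitals mark CACGTG, at 228, 172 and 3 bases before the start, and CCAAT, at 62 bases before it. Of the 32851 promoter windows, 7.15% held CACGTG and 0.0883% (29 windows) held it 3 times or more. Matches are to the letters only. TTNNGNAAT of C/EBP, the full palindrome of the glucocorticoid response element, the EBF palindrome and the perfect direct repeat (DR1) of PPARG and its partner, each searched on both strands, had no match in the 10 windows found for 6 of the factors. In all windows they were found in 11.5%, 0.475%, 0.904% and 0.0396%.
Klf15: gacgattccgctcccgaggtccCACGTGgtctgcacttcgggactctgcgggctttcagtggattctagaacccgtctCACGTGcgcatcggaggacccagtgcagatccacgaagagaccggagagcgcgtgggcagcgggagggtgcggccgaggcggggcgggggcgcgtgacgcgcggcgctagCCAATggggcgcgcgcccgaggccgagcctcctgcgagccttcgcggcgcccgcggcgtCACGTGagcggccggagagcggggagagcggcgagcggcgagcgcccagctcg

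**Figure D3:**
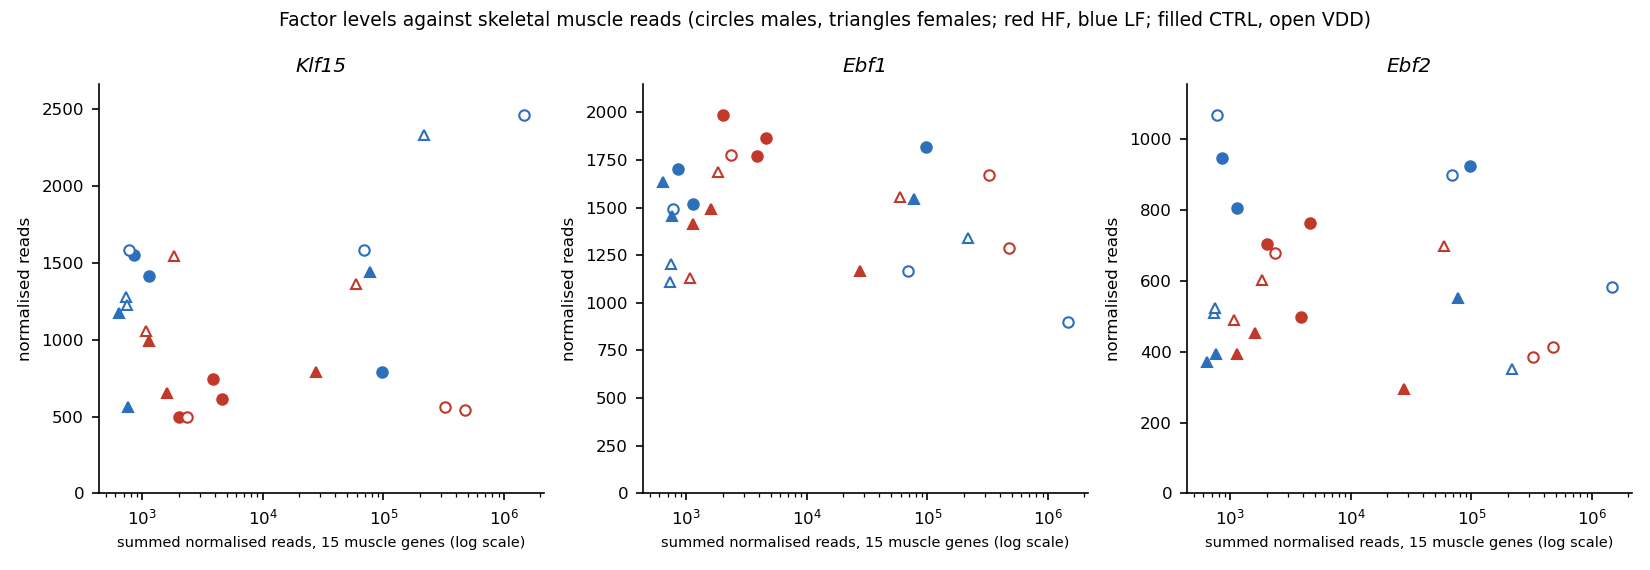
Normalised reads of Klf15, Ebf1 and Ebf2 (y axis, linear) against the summed normalised reads of 15 skeletal muscle genes (x axis, log scale) in the 24 libraries, with circles for males and triangles for females. The right-most point, VDD LF male 2310 (1455100 muscle reads), is the highest for Klf15 (2465) and the lowest for Ebf1 (899).

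Ebf1 encodes a factor of progenitors that also acts in mature fat cells. In males Ebf1 had 1820, 1701 and 1519 normalised reads in CTRL LF, 1772, 1987 and 1867 in CTRL HF, 1493, 1167 and 899 in VDD LF and 1670, 1287 and 1776 in VDD HF. The VDD LF males lay below the CTRL LF males. VDD vs. CTRL males differed by -0.40 ± 0.12 (unadjusted p = 0.00481 and adjusted p = 0.304 by limma). That value was -0.21 (adjusted p = 1) without the 4 libraries highest in muscle genes, 3 of which were VDD males. In LF females Ebf1 had 1456, 1632 and 1547 reads in CTRL and 1339, 1108 and 1205 in VDD, again without overlap (-0.35 ± 0.12, adjusted p = 0.395 by limma). HF vs. LF differed by 0.29 ± 0.12 in males (adjusted p = 0.093 by limma) and by 0.03 ± 0.12 in females (adjusted p = 0.936).

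Ebf2 encodes the EBF factor of brown and beige precursors. In males Ebf2 had 924, 949 and 806 normalised reads in CTRL LF, 497, 706 and 763 in CTRL HF, 1070, 898 and 583 in VDD LF and 386, 413 and 679 in VDD HF. In females it had 394, 371 and 553 in CTRL LF, 452, 395 and 296 in CTRL HF, 351, 510 and 524 in VDD LF and 603, 700 and 491 in VDD HF. The LF males were higher than all the LF females, and the HF groups of the sexes overlapped. Ebf2 was lower in females than in males by -0.59 ± 0.13 (adjusted p = 0.00319 by limma, n = 12 vs. 12), but its fold of 0.663 lay just outside the limit of 0.66, so it was not called. The fold passed the limit without the 4 libraries highest in muscle genes (-0.74, adjusted p = 0.000755), and with scaling by the trimmed mean of M-values.

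Over both maternal groups Ebf2 differed by -0.63 ± 0.18 in HF vs. LF males (0.647 times, adjusted p = 0.0179 by limma) and by 0.09 ± 0.18 in HF vs. LF females (adjusted p = 0.833). The interaction of sex with diet was 0.72 ± 0.26 (unadjusted p = 0.0118 and adjusted p = 0.427 by limma). Without the muscle-rich libraries the difference in males was -0.50 (adjusted p = 0.0635). In CTRL HF vs. VDD HF females Ebf2 did not overlap (0.67 ± 0.21, adjusted p = 0.21 by limma).

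Zfp423 encodes a zinc-finger factor that commits progenitors and was the least abundant per kb. In males Zfp423 had 527, 508 and 362 normalised reads in CTRL LF, 486, 469 and 430 in CTRL HF, 382, 370 and 249 in VDD LF and 486, 659 and 530 in VDD HF. It lay without overlap higher in VDD HF than in VDD LF males (0.75 ± 0.22, adjusted p = 0.0972 by limma). Over both maternal groups the difference for HF vs. LF males was 0.38 ± 0.16 (adjusted p = 0.0827 by limma), and in HF vs. LF females, which ranged from 310 to 586 reads, it was 0.03 ± 0.16 (adjusted p = 0.947). The interaction of maternal with offspring diet in males was 0.75 ± 0.31 (unadjusted p = 0.0259 and adjusted p = 1 by limma). The lowest value, 249 reads, was in VDD LF male 2310, the library richest in muscle genes.

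The genes around these factors were read in lists, first the partners of PPARG. In HF vs. LF males 3 of 19 partners and coregulators fell and 0 rose, against 3.42% and 5.04% of all genes. The list median was -0.16, beside 0.0013 for all genes. The 3 were Ppargc1b (-1.80 ± 0.39, adjusted p = 0.00323 by limma) and Ppargc1a (-1.60 ± 0.35, adjusted p = 0.00333), coactivators of mitochondrial genes, and the deacetylase Sirt1 (-0.64 ± 0.14, adjusted p = 0.00412). Ppargc1b had 46.8 to 193 reads in LF and 14.6 to 33.5 in HF males. The other 16 passed no call, among them the RXR receptors that pair with PPARG. In females 0 of 19 were called, against 0.272% of all genes, with a median of -0.01.

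Of 21 other pro-adipogenic factors tested, 1 fell in HF males, against 3.42% of all genes. It was Lpin1, a phosphatidate phosphatase that also coactivates PPARG (-1.42 ± 0.20, adjusted p = 0.000104 by limma). Lpin1 fell in HF females too (-1.23 ± 0.20, adjusted p = 0.00591 by limma). Of 27 anti-adipogenic factors 2 rose in HF males (Tgfb1 and Runx1) and 1 fell, against 5.04% and 3.42% of all genes. The 1 that fell was Irf4, a factor of lipolysis during fasting. Irf4 differed by -3.26 ± 0.40 in males (adjusted p = 3.39e-05 by limma) and -2.35 ± 0.40 in females (adjusted p = 0.00714). Irf4 had 635 to 9150 reads in LF males and 180 to 455 in HF males.

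Genes downstream of PPARG and C/EBPA did not move together. In HF males 3 of 30 fell, while 3.42% of all genes fell and 5.04% rose. The 3 were Acsl1 (fatty acid activation, -1.33 ± 0.24, adjusted p = 0.000711 by limma), Cfd (adipsin) and Adipor2 (an adiponectin receptor). Lep, the gene of leptin, rose (3.27 ± 0.41, adjusted p = 4.38e-05), and the list median was -0.29. In HF females 0 of 30 were called, against 0.272% of all genes, with a median of -0.27.

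Of 17 genes that glucocorticoids induce, 7 fell and 0 rose in HF males, against 3.42% and 5.04% of all genes. The list median in males was -1.08. In females 0 of 17 were called and 4 passed at an adjusted p under 0.05, against 0.272% and 3.19% of all genes. The list median in females was -0.77. The point estimate was under 0 for all 17 in both sexes, and was nearest to 0 for Dusp1 in females (-0.01 ± 0.40, adjusted p = 0.994 by limma). Glul, glutamine synthetase, differed by -1.55 ± 0.22 in males (adjusted p = 0.000139 by limma) and by -0.95 ± 0.22 in females (adjusted p = 0.0276). Fkbp5, a chaperone of the glucocorticoid receptor, differed by -2.28 ± 0.42 in males (adjusted p = 0.000904) and by -1.22 ± 0.42 in females (adjusted p = 0.104). Fkbp5 had 2608 to 4702 reads in LF males and 568 to 864 in HF males. The summed level of the 17 genes was 60556 to 107858 reads in LF males and 28087 to 39749 in HF males, without overlap. Of 18 immediate early genes 0 were called in either sex, against 8.46% of all genes in males and 0.272% in females.

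**Figure D4:**
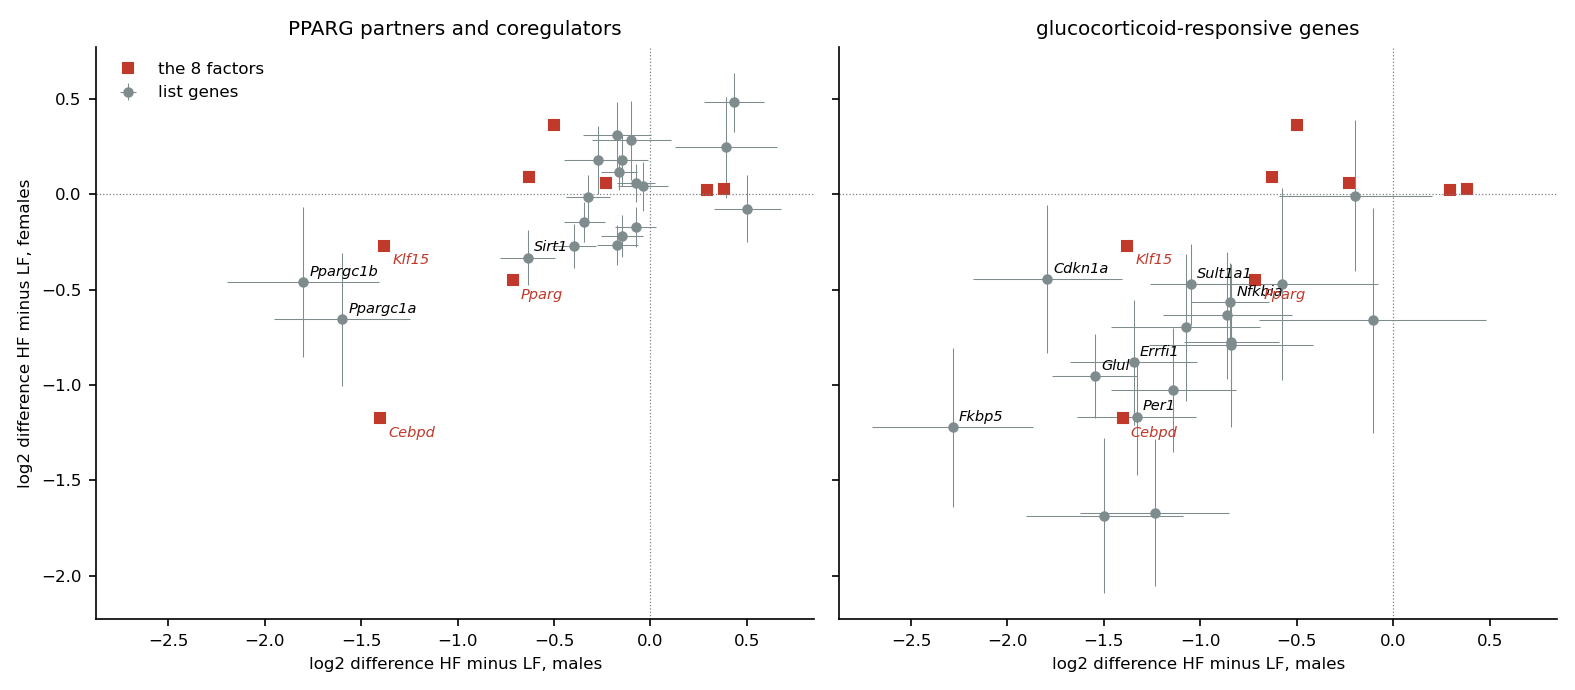
HF minus LF log2 differences in males (x axis) and in females (y axis) for the partners and coregulators of PPARG and for the glucocorticoid-responsive genes, with the 8 factors as red squares and bars of 1 SE. All 17 glucocorticoid-responsive genes lie below 0 on both axes, as does Klf15, at -1.38 in males and -0.27 in females.

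Of 20 markers of progenitors, the cells in which Ebf1, Ebf2 and Zfp423 act, 5 rose in HF males and 0 fell. The 5 were Col15a1, Fap, Thy1, Col3a1 and Cd34, and 5.04% of all genes rose and 3.42% fell. The list median was 0.61 in males. Col15a1, a collagen of the basement membrane, had 435 to 1486 reads in LF males and 3082 to 6820 in HF males (2.44 ± 0.34, adjusted p = 0.000111 by limma). In females 0 of 20 were called and 4 passed at an adjusted p under 0.05, against 0.272% and 3.19% of all genes. Of 12 macrophage genes 2 rose in HF males (Itgax and Lgals3), and of 10 endothelial genes 1 (Erg), against 5.04% of all genes. Of the lymphocyte, mesothelial, muscle, kidney, adrenal and mammary genes tested, 0 were called in HF vs. LF in either sex. The summed macrophage genes ranged from 7745 to 26735 reads in LF males and from 15339 to 41682 in HF males. The part of these cells in the falls of Pparg and Klf15 was not tested.

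In VDD vs. CTRL females 0 genes of any list were called, but neither was any other gene tested (0% of all genes). The 16 brown and beige genes tested had a median of 1.54, with 2 at an adjusted p under 0.05, against 2.02% of all genes. The progenitor markers had a median of -0.53. Between the sexes 6 of 27 anti-adipogenic factors were called higher in females and 0 lower, against 4.59% and 2.68% of all genes, led by Nr2f1 (1.26 ± 0.12, adjusted p = 9.23e-07 by limma) and Foxc2 (2.05 ± 0.21, adjusted p = 1.90e-06). Nr2f1, an orphan nuclear receptor, had 42.1 to 92.3 reads in males and 85.3 to 233 in females. Of the pro-adipogenic factors Klf4 (-0.82 ± 0.16, adjusted p = 0.00108) and Ebf3, a relative of Ebf1 and Ebf2 (-0.62 ± 0.12, adjusted p = 0.00135), were lower in females. Of 10 mesothelial genes 4 were higher in females, all of them keratin genes (Krt7, Krt19, Krt8 and Krt18), and of 12 macrophage genes 4 were lower. Also called higher in females were the mammary genes Epcam and Trp63 and the adrenal genes Hsd3b1, Star and Cyp11a1. The part of these cells and tissues in the Ebf2 and Cebpd values was not tested.

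The factors followed each other only in part over the 24 libraries, which share depth and tissue makeup. Pparg had a Pearson r on log2 levels of 0.71 with Klf15, 0.61 with Cebpb, 0.60 with Cebpd and 0.57 with Cebpa. After group means were taken out, Pparg kept 0.63 with Cebpa and 0.54 with Cebpb but had 0.35 with Klf15 and 0.10 with Cebpd. Ebf1 and Ebf2 had 0.30, and 0.58 within groups. Klf15 and Zfp423 had -0.55 over all libraries, -0.77 in males and -0.04 in females, and -0.05 within groups.

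Genes most like each factor over the 24 libraries were sought among all genes tested. Pparg was closest to an entry whose symbol had been turned into a date (r = 0.93), then to Sephs2 and Aacs (0.92 each). Cebpa was closest to Tspo (0.92), Surf1 (0.85) and Mrpl20 (0.84), and Cebpb to Slc25a33 (0.86), Phyh (0.85) and Eci1 (0.84). Among the genes closest to Cebpd were Gadd45g (0.87) and Tsc22d3 (0.87), the last a gene of the glucocorticoid list. Klf15 was closest to Utp4 (0.91), Hpd (0.89) and Pdcd2 (0.89). Ebf1 was closest to Acox3 (0.84), Smurf1 (0.83) and Gm14221 (0.81), Ebf2 to Etv3, Sprtn and Tmeff1 (0.82 each) and Zfp423 to Krt79 (0.82), B430212C06Rik (0.81) and Kcnj14 (0.81).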

How the data were processed

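RNA from retroperitoneal fat of 24 mice was sequenced as paired ends on a NextSeq 500 (TruSeq Stranded mRNA). Per the study's methods and processing notes, Sickle was used for trimming and STAR 2.7.0d for alignment to mm10 (GRCm38), and the authors kept unique reads, assembled transcripts with Cufflinks 2.2.1, counted with featureCounts 1.6.1 and normalised with DESeq2. The deposited values are log2 of normalised reads plus 1, in 8 tables of 2 groups, each scaled on its own, so a library's level differs slightly between tables. The tables' columns of fold changes and p-values from the authors' own comparisons were not used.

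The log2 values were turned back to reads, and 100% came out whole within 0.02 read. Of 56899 rows, 4 rows of 2 date-like names were left out. Counts of reads per gene were scaled over 24 libraries by median ratios over 17314 genes. Tests used limma 3.58.1 in R 4.3.3 (lmFit, eBayes with trend), on log2 of reads plus 1, for genes with at least 10 normalised reads in at least 3 libraries, fitted per table for 8 comparisons and over 24 libraries for 8 contrasts, with Benjamini-Hochberg adjustment over all genes tested. Calls needed an adjusted p under 0.01 and a fold above 1.5 or below 0.66. Scripts were tested on simulated data. Levels per kb used exon lengths of GENCODE M21, which may differ from the authors' annotation. Columns carry mouse numbers and were mapped to groups.

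The 8 factors and the 17 gene lists were chosen with earlier results of these data known. Named were the 8 factors, the 3 genes most like each, and in each pathway list up to 4 called genes by smallest adjusted p, and 1 of the genes most like a factor is not reported here. Alternatives were limma-voom, another scaling, a pseudocount of 10, no filter, an adjusted p under 0.05, 1 fit over 24 libraries and leaving out each library. The 3 sets of libraries left out were chosen after seeing the data.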

Additional observations from a re-analysis of the deposited data

How the results depend on the processing

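Among the counts of factors called, none turned direction. At an adjusted p under 0.05 with no fold limit, the count was 4 in HF vs. LF males, 2 in VDD vs. CTRL females, 2 in females vs. males, 1 in VDD LF vs. VDD HF males and 1 in CTRL LF vs. CTRL HF females, where the main rule gave 2, 0, 0, 0 and 0. Without the 6 renal-named libraries it was 1 in HF vs. LF males (Klf15). One fit over the 24 libraries gave 1 in VDD LF vs. VDD HF males (Klf15), and scaling by the trimmed mean of M-values, like leaving out the 4 libraries highest in muscle genes, gave 1 in females vs. males (Ebf2). Without the 3 libraries highest in adrenal genes it was 3 in HF vs. LF males (Klf15, Pparg and Cebpd). Leaving out 1 library at a time gave 2 to 3 in HF vs. LF males, 0 to 2 in VDD vs. CTRL females (2 without VDD LF female 2312), 0 to 1 in females vs. males (Ebf2 when any of 11 libraries was left out, Cebpd without VDD LF male 2078) and 0 to 1 in VDD LF vs. VDD HF males (1 without VDD LF male 2310), and 0 in each other comparison. Limma-voom, a pseudocount of 10 and no filter left the counts as they were.

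Pparg in HF vs. LF males lay between -0.75 and -0.68 over the alternatives, and between -0.79 and -0.65 with 1 library left out, called in 24 of 24. Klf15 lay between -1.59 and -1.33, with adjusted p from 0.000457 to 0.00503. In VDD vs. CTRL females the adjusted p under 0.05 of Pparg and of Cebpb held in 17 of 24 fits that left out 1 library, and was 0.111 for each without VDD LF female 2311. Ebf2 in females vs. males kept an adjusted p under 0.05 in 24 of 24. No paired analysis was possible because the columns carry mouse numbers and no replicate number shared between groups. With 3 mice a group, differences that are not small may go uncalled, and the depth was enough for all 8 factors.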
